A study of Mus musculus with 10 samples.

Results

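The mouse genome holds several families of microRNA genes, *Mir297*, *Mir466*, *Mir467* and *Mir669*, most of whose copies lie together inside a gene on chromosome 2, *Sfmbt2*, which encodes a Polycomb group protein. Of 28192 probe sets tested on the array, 7 carry at least 1 symbol of these families, and all 7 are described here. Probe sets with several such symbols were counted once. The families were selected on these same arrays, for their higher values in sacral neural crest progenitors (NCPs) than in total embryo. Values of that comparison are therefore given for the 7 probe sets as a description. Where they are set against the limma threshold, passing it tests nothing about the families.

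Expression was measured on mouse Gene 1.0 ST arrays of Affymetrix, and values are log2 intensities after robust Multi-Array Average (RMA) normalization by the authors. The 3 NCP arrays hold RNA from cells sorted for yellow fluorescent protein at E13, after dissociation of the lower urogenital tract of *Sox10*-H2BVenus transgenic mice. In this line *Sox10* regulatory sequence drives a histone 2B-Venus fusion, so the sort collects cells in which the *Sox10* transgene is or recently was active, and the study pooled tissue of several fetuses into each sample. The 7 total embryo arrays are the controls; their age, strain and genotype are not given in the sources used here. No treatment is named beyond dissociation and sorting of the NCPs. By the codes in their titles the total embryo arrays carry 2 RNAs, with 3 arrays of the code 2090MS0001 and 4 of 836MS0218, so their spread is partly that of repeated arrays of 1 RNA. Unless stated otherwise, p-values of NCPs against total embryo take the 7 arrays as independent, and they can be too small. The NCP arrays carry 3 codes of the 2090MS series. All 3 NCP arrays and total embryo replicate 1 share a day code in their titles, and no other total embryo array has it.

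MicroRNA genes are transcribed as long primary transcripts. In the nucleus the Microprocessor complex cuts out a hairpin, Dicer cuts the hairpin to a short duplex in the cytoplasm, and an Argonaute protein holds 1 strand and pairs it with target mRNAs through the seed, bases 2 to 8. The *Sfmbt2* cluster is known from embryonic stem cells and from the placenta, where *Sfmbt2* is an imprinted gene expressed from the paternal allele. Copies within the cluster resemble each other closely, and reads or probes of 1 copy can match others. Which of the primary transcript, the hairpin and the mature microRNA gave the signal cannot be told from these values, nor can fewer expressing cells be told apart from less RNA per cell.

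The 7 probe sets carry 31 microRNA symbols, and all 31 were found in RefSeq (GRCm38.p6). RefSeq places 30 of them inside *Sfmbt2*. The exception is *Mir297-1*, a copy on chromosome 7. RefSeq lists 81 genes of these families, of which 71 lie inside *Sfmbt2* and 10 elsewhere, and 50 of the 81 are named by no probe set here. Of the 7 probe sets 5, *Mir669b*, *Mir466*, *Mir669c*, *Mir297b* and *Mir297-1*, name a single gene. One probe set names 12 genes of the *Mir467a*, *Mir467b* and *Mir467d* groups and is called *Mir467a/b/d* here, and another names 14 genes of the *Mir669a* and *Mir669p* groups and is called *Mir669a/p*. Counted in order along the 71 copies inside *Sfmbt2*, *Mir669b* is copy 5, *Mir466* copy 55, *Mir669c* copy 57 and *Mir297b* copy 59. The genes of *Mir467a/b/d* run from copy 17 to copy 54 and those of *Mir669a/p* from copy 15 to copy 58. Values of the 2 probe sets with many genes cannot be assigned to any single copy.

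Sequence was examined next. Of the 7 probe sets, the RefSeq hairpin table (GRCm38.p6) held a sequence for *Mir297-1*, a hairpin of 76 bases on the minus strand at chr7:10958437-10958512. It is printed with the mature sequences of 5 relatives from the other families, which lie outside *Sfmbt2* and are named by no probe set, picked to show both kinds of repeat among them. On the plus strand are miR-466k at chr3:85467396-85467418, miR-467h at chr9:115381898-115381919, miR-669n at chr3:115979905-115979924 and miR-466i-3p at chr13:17747552-17747573, and on the minus strand miR-467f at chr11:69635419-69635439. Capitals mark the seed.
Mir297-1 hairpin: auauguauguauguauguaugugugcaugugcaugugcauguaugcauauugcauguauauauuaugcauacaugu
miR-466k: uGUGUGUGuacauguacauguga
miR-467h: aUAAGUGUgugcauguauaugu
miR-669n: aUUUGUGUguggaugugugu
miR-466i-3p: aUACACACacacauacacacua
miR-467f: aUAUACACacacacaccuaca
Alternating U and G recur in the first 4, and alternating C and A in miR-466i-3p and miR-467f. The 5 seeds differ from each other. Of the neighbouring base pairs in the *Mir297-1* hairpin, 48% were UG, GU, CA or AC, against a median of 27.0% over the 1005 hairpins of the table. Only 7 of those hairpins, or 0.697%, reached the share of *Mir297-1*, itself counted among them.

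The labels of the groups were first set against marker genes. *Sox10*, the transcription factor whose regulatory sequence drives the transgene, was 7.56 ± 0.40 (SD, n = 3) in NCPs and 6.56 ± 0.09 (SD, n = 7) in total embryo, a log2 difference of 1.002 (limma, adjusted p = 2.78e-04). Of 8 neural crest markers 6 were measured, and 3 of them were higher, *Sox10*, *Foxd3* and *Cdh19*. *Ednrb* and *Erbb3* were lower, and *Ret* did not pass. All 4 liver genes examined were lower in NCPs, with a median log2 difference of -6.04. The spread of values over all probe sets was narrower on the NCP arrays, with an SD of 0.97 to 1.13, than on the total embryo arrays, with 1.78 to 1.91. Probe sets at the dim end of total embryo therefore lay higher in NCPs, and bright ones lower. With the probe sets divided into 10 equal groups by total embryo level, the median log2 difference was 2.08 in the dimmest group and -2.17 in the brightest. What narrowed the spread was not tested. For this reason each member's difference is given beside that of the other probe sets whose mean total embryo value lies within 0.25 of its own, called probe sets of similar level below. The excess is the member's difference minus their median. For genes it was taken in the same way, and was 1.21 for *Sox10*, 0.80 for *Foxd3* and 0.37 for *Cdh19*. It was 0.34 for *Ednrb*, -0.96 for *Erbb3* and -0.0054 for *Ret*.

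All 7 probe sets had higher means in NCPs than in total embryo, by 1.36 to 4.37 on the log2 scale. All 7 passed the threshold of adjusted p = 0.05 in the limma fit, as did 39.6% of all probe sets in this direction and 27.5% in the other. In 6 of the 7 every NCP array lay above every total embryo array, which held for 31.8% of all probe sets. Both shares were also high among 1208 dim receptor probe sets, described below. Of those, 95.8% passed upward and none downward, and 1059 lay above total embryo on every NCP array. Both counts of members follow from how the families were chosen, and they depended on the scaling. Centred on these receptor genes, *Mir669b*, *Mir467a/b/d* and *Mir297b* differed by -0.15, -0.33 and -0.10, and the other 4 members passed upward. Of the 28192 probe sets, 1338 then passed upward and 21976 downward. That centring also moved the median over all probe sets from 0.23 to -1.47, and the share of calls that were higher from 59.0% to 5.74%. After level adjustment, which removes each array's trend with total embryo level, 2 members passed, *Mir669c* upward and *Mir467a/b/d* downward. In that setting 2903 of the 28192 probe sets passed upward and 2336 downward. The median difference over the members was 2.57, against 0.23 over all probe sets tested. The median excess was 0.22, so that most of the difference was shared with other probe sets of the same dim level.

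*Mir669c* was the exception. Its values were 9.17, 10.02 and 10.17 in NCP replicates 1 to 3, and in total embryo 6.72, 6.41 and 5.25 on the 2090MS arrays (replicates 1, 2 and 7) and 4.96, 4.99, 4.79 and 4.82 on the 836MS arrays (replicates 3 to 6). The lowest NCP array thus lay 2.45 above the highest total embryo array. The means were 9.79 ± 0.54 (SD, n = 3) and 5.42 ± 0.80 (SD, n = 7), a log2 difference of 4.37 (SE 0.43), or 20.7-fold. Only 10 of the 28192 probe sets had a larger difference, and 6 of those 10 carry no gene symbol. Among the 3173 probe sets of similar level the median difference was 0.62 and the 5th to 95th percentiles ran from -0.10 to 1.38, and none exceeded *Mir669c*. Its excess was 3.75. On the NCP arrays, its value minus the median value of those probe sets was 3.13, 3.92 and 4.15. A larger excess was found for 22 of the 28192 probe sets, 19 of them with at least 100 probe sets of similar level. On the NCP arrays *Mir669c* lay at percentiles 97.9 to 99.1 of all probe sets, and in total embryo at 22.9 to 68.0. Brightness depends on the probes as well as on the RNA, so such a place on the array is not an amount of RNA.

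**Figure D1:**
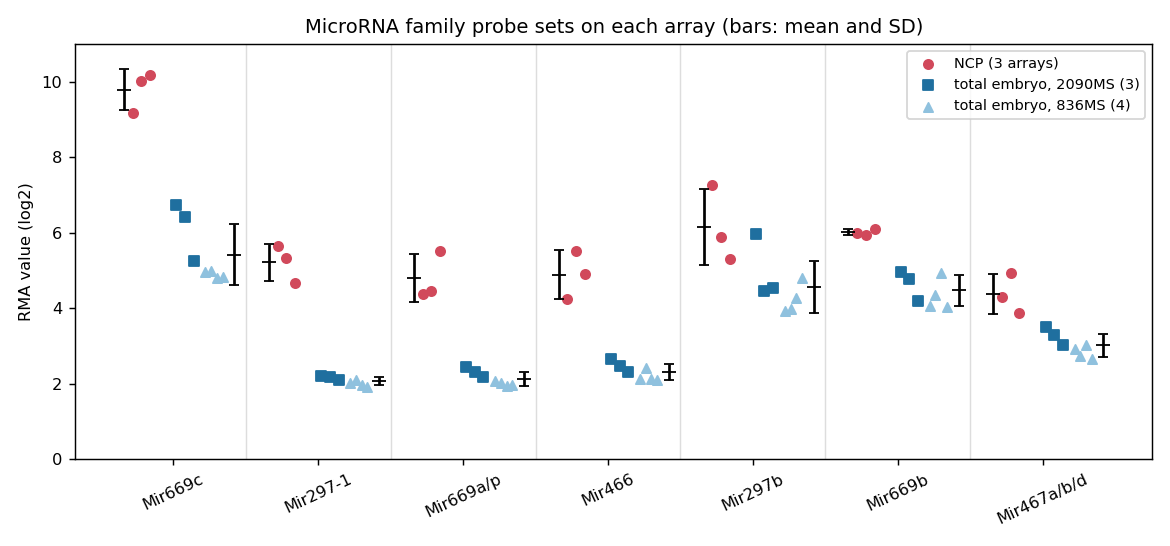
RMA value (log2, vertical axis) of each of the 7 family probe sets on every array, with NCP arrays as circles and total embryo arrays as squares (2090MS) or triangles (836MS); bars give the mean and SD of each group. *Mir669c* reached 9.17 to 10.17 in NCPs, above the NCP values of the other 6, and the groups overlapped for *Mir297b* only.

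*Mir669b*, the other probe set that names a single *Mir669* gene, was steadier. It read 5.99, 5.95 and 6.11 in NCPs, 4.95, 4.77 and 4.19 on the 2090MS arrays of total embryo and 4.06, 4.36, 4.93 and 4.02 on the 836MS arrays. The groups did not overlap. Its difference was 1.55 (SE 0.24), where the 1893 probe sets of similar level had a median of 1.24, an excess of 0.31 at percentile 75.3. The 2 *Mir669* probe sets with a single gene, both inside *Sfmbt2*, thus differed from total embryo by unlike amounts, 4.37 and 1.55.

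*Mir669a/p*, which pools 14 genes, was among the dimmest features on the total embryo arrays. It read 2.45, 2.29 and 2.19 on the 2090MS arrays and 2.06, 2.02, 1.93 and 1.97 on the 836MS arrays, and 4.38, 4.46 and 5.52 in NCPs, with no overlap between the groups. The difference was 2.66 (SE 0.24), slightly under the median of 2.89 for the 168 probe sets of similar level, at percentile 33.3. Its excess was -0.23. On the NCP arrays, its value minus the median value of those probe sets was -0.60, -1.04 and 0.55 in replicates 1 to 3.

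*Mir467a/b/d*, which pools 12 genes, had the smallest difference of the members. It read 4.30, 4.94 and 3.88 in NCPs, 3.49, 3.29 and 3.01 on the 2090MS arrays of total embryo and 2.91, 2.73, 3.03 and 2.64 on the 836MS arrays. The lowest NCP array lay 0.39 above the highest total embryo array. The difference of 1.36 (SE 0.24) was below the median of 2.17 of the 1000 probe sets of similar level, at percentile 5.90 among them. The excess was -0.81. Its value also lay below the median value of those probe sets on each NCP array, by -1.27 to -0.47. On the NCP arrays the probe set lay at percentiles 0.814 to 6.10 of all probe sets.

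*Mir466* read 4.23, 5.52 and 4.90 in NCPs, 2.65, 2.46 and 2.30 on the 2090MS arrays of total embryo and 2.13, 2.42, 2.13 and 2.10 on the 836MS arrays. The groups were 1.58 apart at their nearest arrays. Its difference was 2.57 (SE 0.24) and the median of the 315 probe sets of similar level 2.74, which left an excess of -0.17 at percentile 34.3. *Mir466* is 2 copies away from *Mir669c* in the cluster.

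The probe sets of the *Mir297* family differed in how steady they were. *Mir297b*, also 2 copies from *Mir669c*, read 7.26, 5.89 and 5.29 in NCPs, 5.97, 4.44 and 4.53 on the 2090MS arrays of total embryo and 3.93, 3.96, 4.28 and 4.80 on the 836MS arrays. It had the widest SD of the members in NCPs, 1.01, and was the sole member whose groups overlapped, since total embryo replicate 1 lay above NCP replicates 2 and 3. Its difference was 1.59 (SE 0.45) and its excess 0.41, at percentile 81.5 of 1982 probe sets. Its difference was 1.17 with the label series as a block and 1.03 without NCP replicate 1. It was 1.54 with total embryo averaged per RNA code and 0.53 with cyclic loess scaling. *Mir297b* passed the threshold in none of these settings, and 13 of 23 alternatives kept its direction and call. *Mir297-1*, on chromosome 7, read 5.65, 5.32 and 4.67 in NCPs, 2.21, 2.18 and 2.11 on the 2090MS arrays and 2.02, 2.10, 1.97 and 1.92 on the 836MS arrays. Its difference of 3.14 (SE 0.20) was the second in size after *Mir669c*. The 110 probe sets of similar level had a median of 2.92, and its excess was 0.22 at percentile 67.3. Its difference thus lay above those of the probe sets inside *Sfmbt2* other than *Mir669c*, which ran from 1.36 to 2.66. Its excess lay within their range of -0.81 to 0.41. *Mir297-1* was also the dimmest member in total embryo, with a mean of 2.07.

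**Figure D2:**
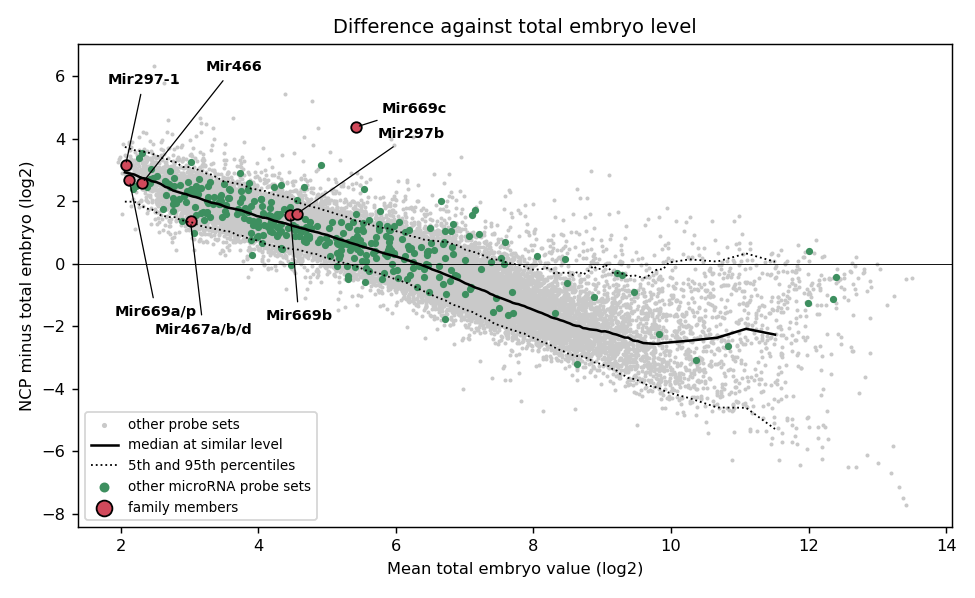
NCP minus total embryo (log2, vertical axis) against the mean total embryo value (log2, horizontal axis) for every probe set tested (grey), the other microRNA probe sets (green) and the 7 family probe sets (red). The solid line is the median of probe sets of similar level and the dotted lines their 5th and 95th percentiles; *Mir669c* lies at 4.37, above the upper dotted line of 1.38 at its level, and the other 6 members lie between the dotted lines.

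The dim end of the array can be read from receptor genes of olfactory and vomeronasal neurons, which few other cells express. Over 1208 such probe sets the median difference was 1.66. On each NCP array *Mir669c* lay above all 1208 of them. In total embryo it lay at percentiles 84.8 to 99.8 of the receptor probe sets. The other 6 members lay within the range of the receptor probe sets on all NCP arrays, at percentiles 2.40 to 98.3. In total embryo *Mir669a/p* and *Mir297-1* lay at the very bottom of that range or below it, at percentiles from 0 to 1.99 and from 0 to 0.745.

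Other microRNA genes were compared next. Over the other 335 microRNA probe sets the median difference was 1.05, with 221 higher and 23 lower past the limma threshold, and their median excess was 0.063. Of these, 28 also carry the symbol of another gene, and some are named for a longer host transcript; over the 307 with microRNA symbols only, host transcripts included, the median difference was 1.08 and the median excess 0.052. The members' median excess was 0.22, and without *Mir669c* it was 0.028. Among all 342 microRNA probe sets *Mir669c* ranked 1 by difference and 1 by excess. The microRNAs next in excess were *Mir320* with 2.49 and *Mir122*, best known from liver, with 2.30. The remaining members ranked from 92 to 327 by excess.

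**Figure D3:**
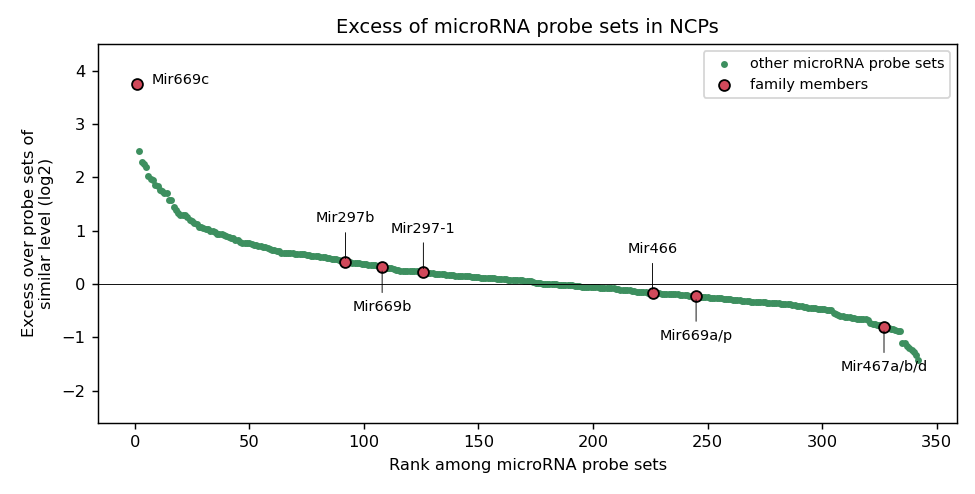
Excess of NCP minus total embryo over the median of probe sets of similar level (log2, vertical axis) for 342 microRNA probe sets in order of rank (horizontal axis), with the 7 family probe sets in red. *Mir669c* stands first at 3.75, ahead of 2.49 for the next probe set, and the other members run from 0.41 to -0.81 along the middle and lower ranks.

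Other microRNA clusters had a median excess near 0. The *Mir379* to *Mir410* cluster, an imprinted cluster on another chromosome, had 31 probe sets with a median difference of 1.58 and a median excess of 0.12, and 25 of them were higher past the threshold and none lower. The *Mir17* to *Mir92-1* cluster, known for its part in proliferation, had 6 probe sets with a median difference of 0.97 and a median excess of -0.13, and 3 were higher. The *Mir290* to *Mir295* cluster of pluripotent cells had no named probe set. The share of UG, GU, CA and AC described above could be computed for 260 other microRNA probe sets with a hairpin in the table. Across these probe sets, which share arrays and are not independent, its rank correlation was 0.058 with the difference and -0.011 with the excess. Pearson's r was 0.072 and -0.030. None of the 260 hairpins reached the 48% of *Mir297-1*, since the highest had 47.1%.

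The total embryo arrays allowed a comparison that the choice of members did not use, between the RNA codes 2090MS0001 (3 arrays) and 836MS0218 (4 arrays). Since the arrays of a code appear to repeat 1 RNA, its p-values compare these RNAs and their arrays, not kinds of embryo. All 7 members had higher means in 2090MS, by 0.16 to 1.24 on the log2 scale, as did 57.1% of all probe sets. *Mir669c* had the largest difference of the members, 1.24 (SE 0.29), with 6.13 ± 0.77 (SD, n = 3) against 4.89 ± 0.10 (SD, n = 4). With limma its unadjusted p was 0.00169 and its adjusted p 0.198. No member passed the threshold, and neither did any of the 28192 probe sets, 0.0% of them. At an unadjusted p under 0.05 there were 3446 probe sets, or 12.2%, and 3 members, *Mir669c*, *Mir467a/b/d* and *Mir669a/p*. When total embryo replicate 7, the lowest 2090MS array for *Mir669c*, was left out, 221 probe sets passed, of which 1 was a member: *Mir669c*, with a difference of 1.68 and an adjusted p of 0.0295 by limma. When replicate 1, its highest array, was left out instead, the difference of *Mir669c* was 0.94 with an adjusted p of 0.582 by limma, and leaving out any other total embryo array gave 1.098 to 1.27, none past the threshold.

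Without overlap, every 2090MS array lay above every 836MS array for 3 members, *Mir669c*, *Mir669a/p* and *Mir297-1*, against 6.14% of all probe sets. The differences of the last pair were small, 0.31 and 0.16. *Mir297b* differed by 0.74, *Mir467a/b/d* by 0.44, *Mir669b* by 0.30 and *Mir466* by 0.28, each with overlapping arrays. The other microRNA probe sets had a median difference of 0.13 between the codes, and 242 of 335 were higher in 2090MS.

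Total embryo replicate 1, which shares its day code with the NCP arrays, was the highest of the 7 total embryo arrays for all 7 members. This was seen after the values were known. The same array was highest for 20.4% of all probe sets, 24.5% of the other microRNA probe sets and 23.4% of the probe sets of similar level. It exceeded the mean of the other total embryo arrays by a median of 0.56 over the members and 0.092 over the other microRNA probe sets. Against this array alone, the NCP means of *Mir669c*, *Mir297-1*, *Mir669a/p* and *Mir466* were higher by 3.07, 3.004, 2.34 and 2.24. *Mir669b*, *Mir467a/b/d* and *Mir297b* were higher by 1.06, 0.88 and 0.17. Against all 3 arrays of 2090MS the *Mir669c* difference was 3.66 and against those of 836MS 4.90. The part of the day code or RNA code in the members' differences was not tested, and with 1 total embryo array of that day the spread of such arrays could not be measured.

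**Figure D4:**
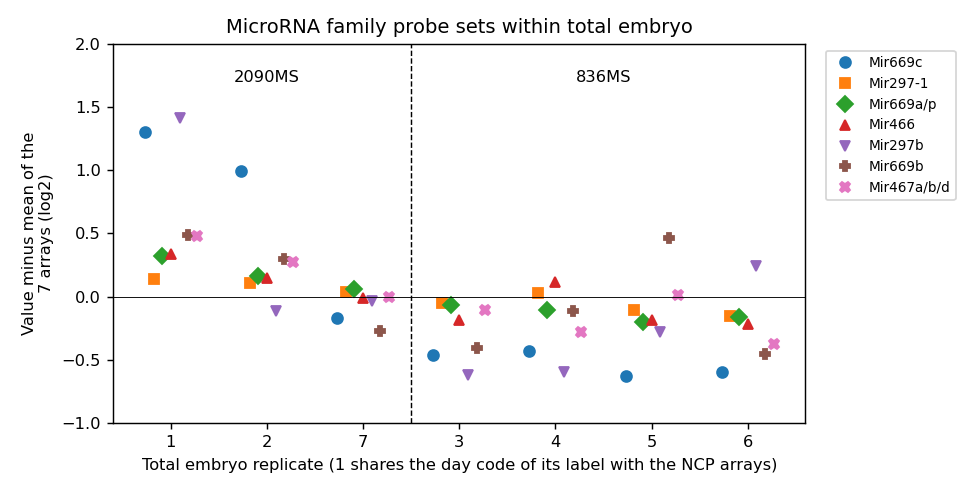
Value of each family probe set on each total embryo array minus its mean over the 7 arrays (log2, vertical axis), with the 2090MS arrays at the left of the dashed line and the 836MS arrays at its right (horizontal axis: replicate). Replicate 1 is the highest array for all 7 probe sets, and *Mir669c* separates the codes, by 1.24 between their means.

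*Sfmbt2* itself, the host gene of 6 of the 7 probe sets, was also higher in NCPs, by less. It read 6.24, 6.68 and 6.19 in NCPs, 5.32, 5.39 and 5.39 on the 2090MS arrays of total embryo and 5.09, 5.32, 5.47 and 5.43 on the 836MS arrays. The groups did not overlap, and the difference was 1.03 (SE 0.16, limma adjusted p = 1.14e-04). With total embryo averaged per RNA code the difference was 1.025 (limma adjusted p = 0.0407). With RNA code as a random block it was 1.026 (limma adjusted p = 0.00593). Its excess was 0.37, at percentile 77.7 of the probe sets of similar level. Between the total embryo codes *Sfmbt2* differed by 0.041, where *Mir669c* differed by 1.24. The call and direction of *Sfmbt2* depended on the scaling. With arrays centred on the receptor probe sets the difference was -0.67 (limma adjusted p = 0.00218), a setting in which 21976 probe sets passed downward. After level adjustment it was 0.34 (limma adjusted p = 0.142).

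The protein-coding genes beside *Sfmbt2*, 3 on each side, held none that passed the test upward, and 4 of the 6 were lower. *Itih2*, a carrier of hyaluronan made largely by liver, fell by 3.93, and *Itih5*, of the same gene family, fell by 1.096. *Rbm17*, a splicing factor, fell by 1.65 and *Pfkfb3*, a regulator of glycolysis, fell by 0.87 (limma adjusted p of 6.51e-04 or less for all 4). Set against probe sets of similar level, the excess was -1.42 for *Itih2* and -1.09 for *Rbm17*, but 0.10 for *Itih5* and 0.21 for *Pfkfb3*. *Kin*, a DNA-binding protein, differed by 0.64 (limma adjusted p = 0.0902) and *Prkcq*, a protein kinase C of T cells, by -0.34 (limma adjusted p = 0.174). The excess of *Kin*, 0.36, was close to the 0.37 of *Sfmbt2*, and that of *Prkcq* was 0.0031. The liver list moved with *Itih2*, and its part was not tested.

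In the values as deposited, more genes of microRNA production and function were lower than higher in NCPs. Of 23 genes listed for these roles, all measured, 2 were higher past the limma threshold, 13 were lower and 8 did not pass. The list also holds *Smarcd1*, which encodes a subunit of a chromatin remodelling complex and did not pass, with a difference of 0.59. Over the 23 the median difference was -0.80 and the median excess 0.011. In the nucleus, *Drosha* and *Dgcr8*, the enzyme and the RNA-binding partner of the Microprocessor, fell by 0.93 and 0.86, and the helicases *Ddx5* and *Ddx17* that act with it by 2.39 and 2.29. *Xrn2*, a nuclear exonuclease, had the largest decrease, -2.50, from 8.81 ± 0.19 (SD, n = 7) to 6.31 ± 0.76 (SD, n = 3). *Xpo5*, the export receptor for hairpins, differed by -0.57 and did not pass (limma adjusted p = 0.0792).

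In the cytoplasm *Dicer1* fell by 2.23. Of the 4 Argonaute genes *Ago1* and *Ago2* fell, by 0.81 and 0.75, and *Ago3* and *Ago4* did not pass, with -0.31 and 0.24. The scaffold genes *Tnrc6a* and *Tnrc6b* fell by 0.80 and 1.07. The increases were *Lin28b*, by 1.32, and *Lin28a*, by 1.07, RNA-binding proteins that block maturation of the let-7 microRNAs. *Tut7* and *Tut4*, which add uridines to let-7 precursors, fell by 2.24 and 1.69. With cyclic loess scaling 7 of the 23 were higher and 2 lower, after quantile normalization 5 were higher and 8 lower, and after level adjustment 3 were higher and 1 lower, so the split between the directions depended on the scaling. *Ago1* had the lowest excess of the 23, -0.80, and *Ran*, which did not pass, the highest, 2.44. Among the 13 that were lower as deposited, the excess ran from -0.80 for *Ago1* to 0.50 for *Dgcr8*.

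**Figure D5:**
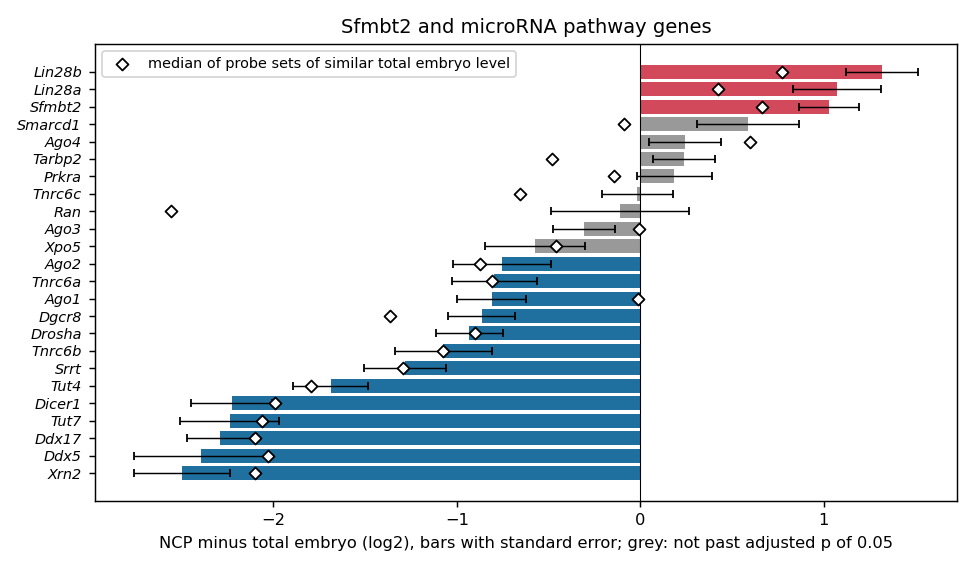
NCP minus total embryo (log2, horizontal axis) for *Sfmbt2* and the 23 genes listed for microRNA production and function, *Smarcd1* among them (vertical axis), with standard errors. Red and blue bars passed the limma threshold and grey bars did not. Open diamonds give the median of probe sets of similar level, which lay near many of the bars, such as that of *Dicer1*, lower by 2.23.

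Placenta and pluripotent cells, tissues in which the *Sfmbt2* cluster is known to be active, were examined through their markers. Of 11 trophoblast and placenta markers 8 were measured, 5 were higher in NCPs and none lower, with a median difference of 0.70 and a median excess of 0.16. Their mean level per array was 6.05 to 6.55 in NCPs and 5.34 to 5.39 in total embryo, and 6 of the 8 had NCP means no higher than the 95th percentile of the receptor probe sets. Of 5 pluripotency markers 3 were higher and none lower, with a median difference of 1.74 and a median excess of 0.40. *Nanog* read 7.86 ± 0.18 (SD, n = 3) against 5.77 ± 0.15 (SD, n = 7), with an excess of 1.72. *Pou5f1* and *Tdgf1* differed by 1.94 and 1.74, with an excess of 0.40 and 0.68. *Zfp42* and *Dppa5a*, with 0.18 and 0.72, did not pass, and their excess was -1.46 and -0.17. The mean level per array of this list was 5.95 to 6.06 in NCPs and 4.53 to 4.76 in total embryo. Of the 5, 4 had NCP means no higher than the 95th percentile of the receptor probe sets, all but *Nanog*. For comparison, 39.6% of all probe sets and 95.8% of the receptor probe sets were higher in NCPs past the threshold. The part of either list in the members' values was not tested.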

How the data were processed

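The authors deposited log2 intensities, made by RMA in Affymetrix Expression Console 1.1. The sources used here do not say which arrays entered a normalization together. The labels name a GeneChip labelling kit, while the study's methods name NuGEN amplification; which was used is not settled here. Values were used as deposited. Groups came from the labels (3 NCP, 7 total embryo arrays), with replicates numbered in accession order, so their numbers pair nothing. RNA and day codes were read from the titles. The number of arrays limits the precision.

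Control probe sets (6568 of 34760) were left out. Of the 28192 tested, 21640 have 1 gene symbol, 1321 several and 5231 none. limma 3.58.1 in R 4.3.3 (linear model, moderated test, Benjamini-Hochberg over all probe sets) was tested on simulated data, and the threshold was an adjusted p of 0.05. A gene's probe set was the one with the highest mean among those of that gene alone. RefSeq (GRCm38.p6) gave names, order along *Sfmbt2* and sequences. Named were all members, *Sfmbt2* and its neighbours, *Sox10*, and pathway genes. Marker lists not given in the report were smooth muscle and mesenchyme (6 of 6 lower), epithelium (4 of 5 lower), endothelium (3 of 4 lower) and erythroid (2 higher and 1 lower of 3). Alternatives changed controls, scaling, filter, prior, block, window and members, and left out each array. The members and lists were chosen with earlier results of these data known. Figures were drawn with Python 3.11.15.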

Additional observations from a re-analysis of the deposited data

Results flagged for a closer look

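Among 14 features examined over the 7 total embryo arrays, 3 had an array that stood apart, its gap to the nearest array exceeding 0.568 of the whole range; chance gives such a gap in about 5% of groups. *Mir297b* read 5.97 on total embryo replicate 1, where the next array read 4.80, a gap of 0.577 of the range. *Sfmbt2* read 5.09 on replicate 3, its lowest, where the next read 5.32, 0.589 of the range. *Sox10* read 6.38 on replicate 2, its lowest, where the next read 6.53, 0.576 of the range. No explanation of these arrays was tested.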

How the results depend on the processing

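The difference of *Mir669c* kept its direction in all 23 alternatives, from 2.67 to 5.04, and its excess ran from 3.40 to 4.79. Since the families were chosen on this contrast, these ranges describe the processing and do not test the difference. Leaving out each array in turn gave a median difference over the members of 2.26 to 2.86, 6 to 7 members past the threshold, 10710 to 11119 probe sets higher and 7371 to 7930 lower, a *Sfmbt2* difference of 0.87 to 1.12, 2 to 3 pathway genes higher and 13 to 14 lower, and a median excess of -0.12 to 0.29. The negative median came without NCP replicate 1, and over all arrays left out the excess ran from -0.41 to 0.024 for *Mir466*, -0.18 to 0.82 for *Mir297b*, -0.13 to 0.44 for *Mir297-1* and -0.67 to 0.058 for *Mir669a/p*, the first 3 crossing 0 without NCP replicate 1 and the last without NCP replicate 2. Without NCP replicate 1 *Mir297b* was the member that no longer passed, with a difference of 1.03. Between the RNA codes 0 to 1 members passed, the 1 being *Mir669c* without total embryo replicate 7.

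With total embryo averaged per RNA code, 5761 probe sets were higher and 4183 lower, and 1 pathway gene was higher and 7 lower. Against the single total embryo array of the shared day code, the median difference was 2.24 and the median excess -0.083 (*Mir297b* -0.083), 2 members passed, 364 probe sets were higher and 691 lower, *Sfmbt2* differed by 1.06 (limma adjusted p = 0.281), and pathway genes passed 0 higher and 0 lower; this fit has 1 control array, assumed to vary like the NCP arrays. With cyclic loess the median difference was 0.40, 3 members passed, 4777 probe sets were higher and 4506 lower, 7 pathway genes were higher and 2 lower, *Mir467a/b/d* was -0.94 and *Mir669a/p* -0.013. With quantile normalization repeated the median difference was 1.24, 6370 probe sets were higher, 5 pathway genes were higher and 8 lower, and *Mir467a/b/d* was -0.23. With receptor centring the median difference was 0.88, 4 members passed, and 1338 probe sets were higher and 21976 lower. *Sfmbt2* was then -0.67 (limma adjusted p = 0.00218), and pathway genes were 0 higher and 22 lower. In the same setting *Mir669b*, *Mir467a/b/d* and *Mir297b* were -0.15, -0.33 and -0.10. After level adjustment the median difference was 0.23, 2 members passed, 2903 probe sets were higher and 2336 lower, *Sfmbt2* was 0.34 (limma adjusted p = 0.142), 3 pathway genes were higher and 1 lower, and *Mir467a/b/d*, *Mir466* and *Mir669a/p* were -0.88, -0.17 and -0.21. A filter on dim probe sets left 3 members, all past the threshold, with a median of 1.59. Of all probe sets kept by that filter, 8270 passed upward and 7701 downward. Over the members within *Sfmbt2*, or without *Mir669c* (a choice made after seeing the data), the median was 2.08. Against other microRNA probe sets the excess of *Mir669a/p* was 0.10. The cause of these changes was not tested. No paired analysis was possible because replicate numbers are given in accession order and pair no samples. Members at the dim end of total embryo have values within or below those of receptor genes, where small differences are not measured well.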
